A study of Homo sapiens with 4 samples.

Results

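The expression of 38 genes of the actin cytoskeleton and of stress fibres was followed, taken by symbol from the 33694 genes of the count matrices, and all 38 symbols were found. They comprise 3 actins, 4 tropomyosins, 6 calponins, transgelins and caldesmon, 6 myosins, 8 crosslinkers and adhesion plaque proteins, 9 genes of actin dynamics, and a last pair, *EZR* and *SH3BGRL3*. The rule that picked their rows used gene names and no level or ratio. The list itself was chosen with earlier results of these data known, so the counts below are not independent of those results.

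Actin monomers assemble into filaments, and filaments that are bundled by alpha-actinin, covered by tropomyosin and pulled by nonmuscle myosin II form the contractile bundles called stress fibres, which end in adhesion plaques at the membrane. TGF-β1 is a textbook inducer of stress fibres during epithelial-mesenchymal transition (EMT), and many genes of the bundles are known targets of serum response factor, which binds a promoter element called the CArG box. Actin-binding proteins that hold monomers or cut filaments set how much actin is available for assembly.

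OVCA420, an established ovarian cancer cell line, was kept without TGF-β1 (Ctrl) or in 10 ng/mL of it for 1, 3 or 7 days (1-day, 3-day and 7-day), with the factor renewed every 2 days. The start of treatment was staggered so that all 4 cultures were harvested at the same time, and no cells were passaged in the last 2 days. The labels name no genetic change in any group. Each condition is 1 library of single-cell RNA-seq, so no difference below has a replicate check, no test was made, and the intervals cover counting error only.

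Of 10710 listed barcodes, the matrices analysed held 3170, the first part of each library in barcode order. After filtering, 3144 cells were retained, 569 to 937 per library. The retained cells held 25382817 to 32949874 UMIs per library, and the median cell held 30270 UMIs in Ctrl and 32393, 43553 and 43382 after 1, 3 and 7 days. Cells called G1 made up 27.2% of Ctrl cells and 73.1%, 49.6% and 40.9% of cells after 1, 3 and 7 days, and 1 to 7 barcodes were shared between any pair of libraries. All 6 epithelial markers (*EPCAM*, *KRT7*, *KRT8*, *KRT18*, *KRT19* and *CDH1*) were detected in every library, at 3847 to 5601 CPM in sum. The 6 fibroblast markers summed to 0.315 to 1.47 CPM with *COL3A1* at 0, the 6 smooth muscle markers to 0.498 to 0.709 CPM with *DES* at 0, the 4 leukocyte markers to 0.0788 to 0.733 CPM, and the 4 endothelial markers to 0.311 to 5.40 CPM, the highest being Ctrl, with *CLDN5* at 0. Each UMI tags the 3′ end of a captured molecule, so a level in CPM (UMIs of the gene per 1000000 UMIs of the library) does not grow with transcript length.

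Promoter sequence is shown first for the 5 members whose reference window held an exact CArG box, because the box is the element through which serum response factor binds actin genes. RefSeq windows of 250 bases before to 50 bases after a start site (GRCh38.p14) were found for 34 of the 38 members, and those of *ACTB*, *TAGLN*, *MYL9* and *ARPC1B* were not. A CArG box, searched on both strands, was in the windows of 5 of these 34 genes (14.7%), against 1.60% of 27305 genes with a window. Counted by window, since genes can have several, the share was 7.94% of 63 windows against 1.29% of 35116. The MCAT element CATTCC, on either strand, was in windows of 10 of the 34 members (29.4%) and of 16.7% of all genes. Counted by window, its share was 17.5% of the 63 against 14.0% of the 35116, a smaller difference. No CArG box overlapped an MCAT element. Each line gives the 200 bases before the start, in the direction of transcription, with the box in capitals. The windows are *ACTG1* at chr17:81512800-81512999 (minus strand), *TPM4* at chr19:16067338-16067537 (plus strand), *CNN2* at chr19:1026408-1026607 (plus strand), *ACTN1* at chr14:68977567-68977766 (minus strand, the third of its 4 windows) and *FLNA* at chrX:154374635-154374834 (minus strand).
ACTG1: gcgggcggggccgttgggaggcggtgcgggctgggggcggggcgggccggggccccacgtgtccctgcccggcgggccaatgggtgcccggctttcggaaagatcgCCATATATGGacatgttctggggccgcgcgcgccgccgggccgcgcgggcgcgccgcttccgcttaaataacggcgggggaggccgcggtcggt
TPM4: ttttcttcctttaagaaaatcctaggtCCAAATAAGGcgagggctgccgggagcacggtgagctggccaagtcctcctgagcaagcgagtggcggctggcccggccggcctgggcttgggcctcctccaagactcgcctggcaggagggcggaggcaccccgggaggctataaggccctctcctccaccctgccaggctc
CNN2: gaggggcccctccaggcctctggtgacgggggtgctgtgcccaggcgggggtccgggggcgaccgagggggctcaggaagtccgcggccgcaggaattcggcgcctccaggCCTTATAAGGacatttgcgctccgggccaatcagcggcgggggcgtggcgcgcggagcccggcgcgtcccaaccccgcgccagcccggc
ACTN1: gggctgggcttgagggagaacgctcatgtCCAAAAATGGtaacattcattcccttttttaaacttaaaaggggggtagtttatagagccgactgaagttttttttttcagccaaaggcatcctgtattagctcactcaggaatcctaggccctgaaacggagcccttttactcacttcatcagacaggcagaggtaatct
FLNA: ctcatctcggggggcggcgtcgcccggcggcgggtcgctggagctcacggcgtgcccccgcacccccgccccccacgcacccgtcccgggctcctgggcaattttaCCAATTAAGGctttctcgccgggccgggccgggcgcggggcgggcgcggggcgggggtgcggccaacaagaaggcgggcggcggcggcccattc
The boxes begin 94 bases before the start in *ACTG1* and in *FLNA*, 173 in *TPM4*, 89 in *CNN2* and 171 in *ACTN1*. Their sequences differ in the A and T bases between the flanking cytosines and guanines: CCATATATGG in *ACTG1*, CCAAATAAGG in *TPM4*, CCTTATAAGG in *CNN2*, CCAAAAATGG in *ACTN1* and CCAATTAAGG in *FLNA*. The log2 ratios of these 5 genes at 1-day ran from 0.62 (*ACTG1*) to 2.50 (*ACTN1*), inside the range of the other members, where *TPM1* stood at 2.76. A match describes these letters and does not show a bound site.

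The 38 genes together took 1.71% of all UMIs in Ctrl and 3.13%, 3.25% and 3.26% after 1, 3 and 7 days. Per cell this was 550 UMIs in Ctrl and 1100, 1482 and 1454 UMIs thereafter, in libraries whose total UMIs per cell also differed. The log2 ratio to Ctrl of the sum in CPM was 0.87 at 1-day, 0.93 at 3-day and 0.93 at 7-day. Over all cells, most of the step was therefore reached at the first time point, and the sum changed little after it while single members changed. From 3-day to 7-day *TMSB10*, the member with the most UMIs, went from 8124 to 11190 CPM. Of the 31 members that reached 20 CPM in a library, 19 fell beyond the counting interval at this step. Another 8 rose, *TMSB10* among them, and the intervals of 4 held 0. The sum without *TMSB10* was not computed. In cells thinned to 18000 UMIs each (844 in Ctrl and 900, 677 and 549 after 1, 3 and 7 days), the median share was 1.69% in Ctrl and 3.08%, 3.21% and 3.19% thereafter. The 95th percentile of Ctrl cells was exceeded by 81.7% of 1-day cells, 87.3% of 3-day cells and 84.0% of 7-day cells, so the step was found in most cells of the treated libraries.

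Called phases separated the share by less than the treatment did. In Ctrl the median share was 1.62% in G1 cells, 1.72% in S and 1.72% in G2M, and at 7-day it was 3.55%, 3.05% and 2.99%. Within G1 cells alone the log2 ratio of the sum was 0.98 at 3-day and 1.04 at 7-day. The median share in G1 cells was 3.11% at 1-day and 3.36% at 3-day, so in these cells it was higher in each later library.

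Of the 38 members, 31 reached 20 CPM in at least 1 library and 7 did not (*ACTA2*, *TPM2*, *CNN1*, *TAGLN*, *MYL9*, *MYH10* and *CAPG*). At 1-day, 16 of the 31 members with at least 20 CPM in either library were at least 2-fold higher than in Ctrl and 0 were at least 2-fold lower, against 10% and 8.46% of all 5862 genes that reached the same level. At 3-day, 18 of 30 were higher and 0 lower (10.5% and 5.18% of 5961 genes), and at 7-day 16 of 30 were higher and 0 lower (11.7% and 4.89% of 6119 genes). *GSN* reached the level limit only through treated libraries, and only at 1-day. The median log2 ratio of the members was 1.03, 1.20 and 1.07 at 1, 3 and 7 days, where that of all genes was -0.04, 0.05 and 0.11. All ratios to Ctrl share the 1 Ctrl library. Between consecutive treated libraries few members moved as far. From 1-day to 3-day 0 of 31 were at least 2-fold higher and 1 lower, *GSN* (3.89% and 2.29% of all genes), and from 3-day to 7-day 0 of 30 were higher and 1 lower, *TPM1* (1.23% and 0.582%).

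**Figure D1:**
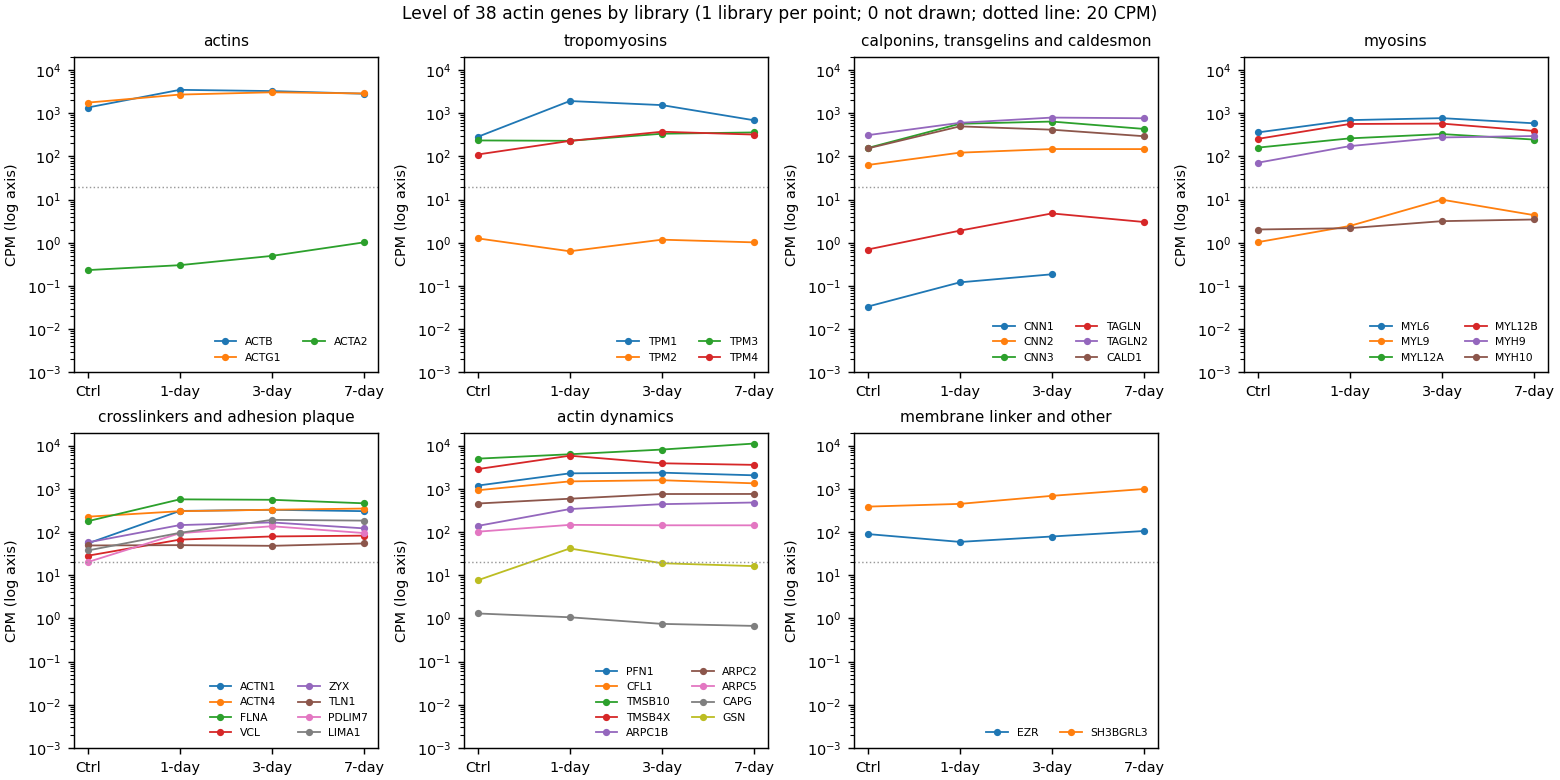
Level of each of the 38 genes in CPM (log axis) by library, in the order Ctrl, 1-day, 3-day and 7-day. There is a panel for each group of genes and 1 library per point. Values of 0 are not drawn (*CNN1* at 7-day), and the dotted line marks 20 CPM, under which 7 genes stayed in every library.

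The 31 members fell into patterns of timing when each step was read against its counting interval. *ACTB*, *TPM1*, *CALD1*, *FLNA*, *TMSB4X* and *GSN* (6 genes) rose to 1-day and fell at both later steps. A further 12 rose at the first 2 steps and fell to 7-day (*ACTG1*, *TPM4*, *CNN3*, *TAGLN2*, *MYL6*, *MYL12A*, *ACTN1*, *ZYX*, *PDLIM7*, *LIMA1*, *PFN1* and *CFL1*), and 5 rose at every step (*MYH9*, *ACTN4*, *TMSB10*, *ARPC1B* and *SH3BGRL3*). Of all 6337 genes that reached 20 CPM in a library, 9.78%, 5.35% and 6.26% had these patterns. Counting intervals narrow with more UMIs, so genes of high level are called up or down more readily than genes near 20 CPM. Shares of all genes by this rule, here and below, were not matched for level. Many of the later steps were small and depended on the processing: the same pattern under all 10 alternatives of scaling and cell choice was kept by 4 of the 6 (*ACTB*, *TPM1*, *CALD1* and *TMSB4X*), 7 of the 12 (*TPM4*, *CNN3*, *MYL6*, *MYL12A*, *ZYX*, *PDLIM7* and *CFL1*) and 2 of the 5 (*TMSB10* and *ARPC1B*). The highest level was at 1-day for 7 members, at 3-day for 14, at 7-day for 10 and in Ctrl for 0. No such count over all genes is set beside these, so whether they are unusual was not tested. At 7-day all 31 were above Ctrl beyond the counting interval, by log2 ratios from 0.15 (*TLN1*) to 2.48 (*ACTN1*), where 49.9% of the 6337 genes were above Ctrl by the same rule. With median-of-ratios size factors, in thinned cells and in the first part of each library split in barcode order into 2 parts, the interval of *TLN1* held 0, and in G1 cells that of *EZR* did. These verbs state differences between single libraries.

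**Figure D2:**
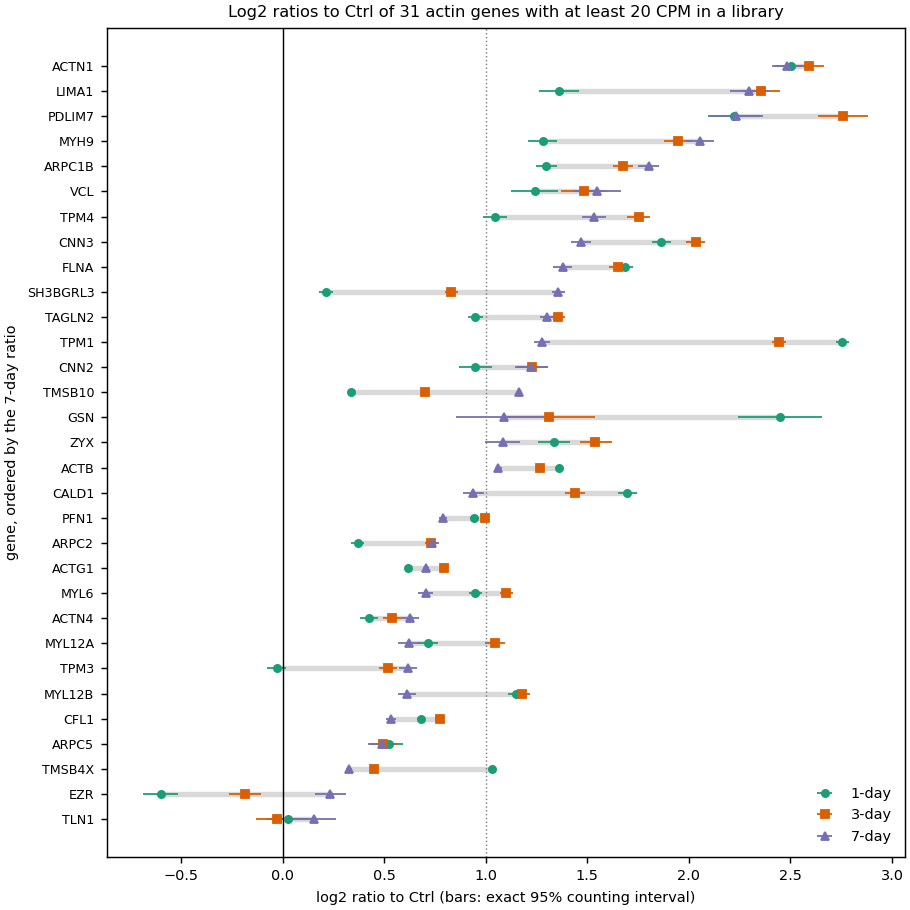
Log2 ratio to Ctrl at 1-day (circles), 3-day (squares) and 7-day (triangles) of the 31 members that reached 20 CPM, ordered by the 7-day ratio, with exact 95% counting intervals and a dotted line at a 2-fold higher level. *ACTN1* holds its place near 2.5 at all 3 times, *TPM1* falls from 2.76 to 1.28, and *TMSB10* and *SH3BGRL3* climb at each time point.

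Among the actins, *ACTB*, which encodes cytoplasmic beta-actin, stood at 1357 CPM in Ctrl and 3488, 3266 and 2833 CPM after 1, 3 and 7 days, and *ACTG1*, which encodes gamma-actin, at 1764 CPM in Ctrl and 2708, 3061 and 2877 CPM after 1, 3 and 7 days. *ACTB* had its log2 ratio to Ctrl highest at 1-day, 1.36 (95% counting interval 1.35 to 1.38), and then declined to 1.06. *ACTG1* rose less, by 0.62, 0.79 and 0.71 at the 3 times. The order of the pair therefore turned over at 1-day and 3-day, and at 7-day *ACTG1* was again slightly ahead. There were 0.769 *ACTB* UMIs per *ACTG1* UMI in Ctrl and 1.29, 1.07 and 0.984 after 1, 3 and 7 days. Both genes have many pseudogenes named after them in GENCODE (12 for *ACTB* and 21 for *ACTG1*), and reads that such copies could take or share make their counts uncertain. *ACTA2*, the smooth muscle alpha-actin that marks myofibroblasts, was close to absent, at 0.233 CPM in Ctrl and 0.303, 0.498 and 1.02 CPM after 1, 3 and 7 days, and a UMI of it was found in 0.592% of thinned Ctrl cells and 1.46% of thinned 7-day cells. No cell type that lacks these genes was in the libraries, so a contribution of free RNA to such low detection could not be measured.

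The tropomyosins, coiled-coil proteins that lie along the actin filament and decide which myosins and severing factors reach it, rose by a log2 ratio of 1.91 in sum at 1-day, 1.84 at 3-day and 1.12 at 7-day, the highest of the groups at 1-day. *TPM1* (chr15:63042620-63071915, plus strand, GRCh38), whose long isoforms are typical of stress fibres, had the widest swing of the tropomyosins. Its level was 284 CPM in Ctrl and 1920, 1546 and 688 CPM after 1, 3 and 7 days. The log2 ratio to Ctrl was 2.76 (95% counting interval 2.72 to 2.79) at 1-day, a 6.75-fold difference, 2.44 at 3-day and 1.28 at 7-day, so most of the rise in CPM was lost between 3 and 7 days (log2 ratio of 7-day to 3-day -1.17 (95% counting interval -1.19 to -1.14)).

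*TPM4*, which encodes a short tropomyosin of nonmuscle cells, rose later, with 111 CPM in Ctrl and 229, 374 and 321 CPM after 1, 3 and 7 days. *TPM3*, whose nonmuscle products are also short, stood at 235 CPM in Ctrl and 230, 336 and 360 CPM after 1, 3 and 7 days, and its 1-day ratio of -0.03 (95% counting interval -0.08 to 0.02) held 0. *TPM2*, the other tropomyosin with products of muscle and fibroblasts, had 21 to 38 UMIs in a library, at 1.27, 0.637, 1.18 and 1.02 CPM, and its 1-day log2 ratio was -0.99 (95% counting interval -1.83 to -0.19). The make-up of the family shifted accordingly. *TPM1* gave 45.0% of tropomyosin UMIs in Ctrl and 80.7%, 68.5% and 50.2% after 1, 3 and 7 days, while *TPM3* gave 37.2%, 9.67%, 14.9% and 26.3%, and *TPM4* 17.6%, 9.62%, 16.6% and 23.4%. At 7-day the *TPM1* share was again near that of Ctrl, but at 2.17-fold the summed level. Counts at the 3′ end do not tell the isoforms of a tropomyosin gene apart, and 9 pseudogenes named after *TPM3* make its level uncertain.

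**Figure D3:**
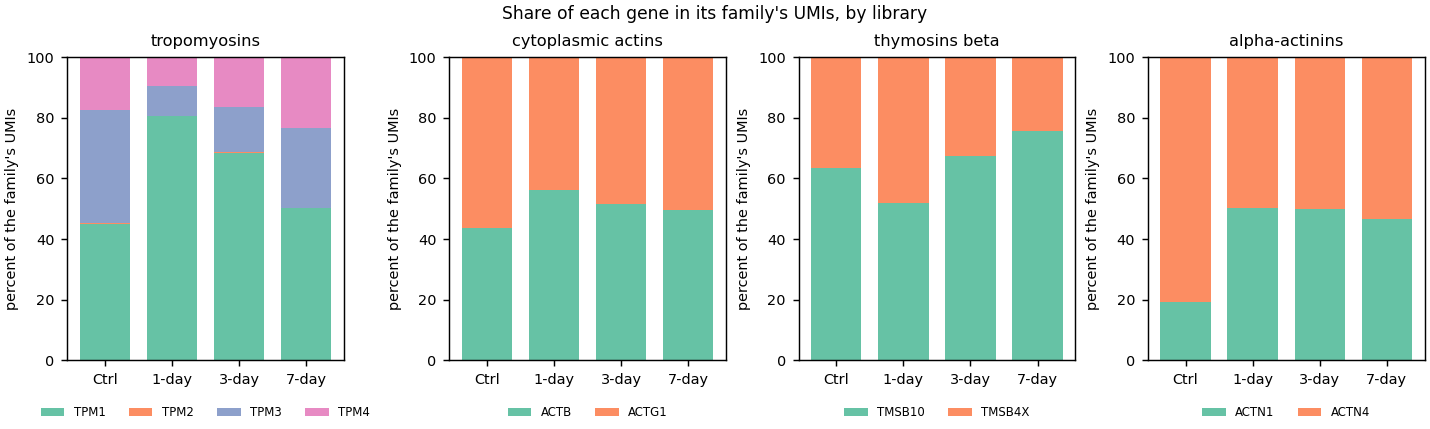
Share of each gene, in percent, of the UMIs of its family in the 4 libraries, for the tropomyosins, the cytoplasmic actins, the beta-thymosins and the alpha-actinins. *TPM1* widens from 45.0% in Ctrl to 80.7% at 1-day and returns to 50.2% at 7-day, while *ACTN1* goes from 19.4% in Ctrl to 50.4% at 1-day and is at 46.5% at 7-day.

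Calponins, transgelins and caldesmon bind along actin filaments, and calponins and caldesmon restrain actomyosin contraction. The whole group, transgelins included, stood 1.39, 1.55 and 1.26 above Ctrl on the log2 scale at the 3 times. *CNN3*, the acidic calponin of nonmuscle cells, stood at 157 CPM in Ctrl and 571, 643 and 434 CPM after 1, 3 and 7 days. *CNN2*, also expressed outside smooth muscle, rose less steeply, with 63.4 CPM in Ctrl and 122, 149 and 148 CPM after 1, 3 and 7 days, and held its level from 3-day to 7-day. *CNN3* UMIs per *CNN2* UMI thus went from 2.48 in Ctrl to 4.67 at 1-day and back to 2.93 at 7-day. *CNN1*, the calponin of differentiated smooth muscle, had 1, 4, 6 and 0 UMIs over the time course, where 0 UMIs at 7-day allow up to 0.118 CPM. GENCODE lists 11 pseudogenes named after *CNN2*.

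*TAGLN2*, the transgelin of nonmuscle cells, stood at 311 CPM in Ctrl and 600, 795 and 766 CPM after 1, 3 and 7 days, with log2 ratios of 0.95, 1.35 and 1.30. *TAGLN*, the smooth muscle transgelin (SM22-alpha) and a familiar TGF-β target, had 21, 63, 154 and 77 UMIs, which is 0.700, 1.91, 4.79 and 3.03 CPM. Its log2 ratio at 3-day was 2.77 (95% counting interval 2.11 to 3.51), larger than that of *TAGLN2*, yet it remained under 1% of transgelin UMIs in each library and was detected in 6.20% of thinned 3-day cells. *CALD1*, which encodes caldesmon, stood at 153 CPM in Ctrl and 497, 416 and 294 CPM after 1, 3 and 7 days. It followed the early pattern of *TPM1*, with log2 ratios of 1.70, 1.44 and 0.94, and fell under the 2-fold line at 7-day.

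The myosin II genes supply the motor of the stress fibre: heavy chains, essential light chains and regulatory light chains. Their sum was 1.00 above Ctrl on the log2 scale at 1-day, 1.21 at 3-day and 0.85 at 7-day. *MYH9*, the heavy chain of nonmuscle myosin IIA, had 71.5 CPM in Ctrl and 174, 276 and 297 CPM after 1, 3 and 7 days and log2 ratios of 1.28, 1.95 and 2.06. *MYL6*, the essential light chain, stood at 360 CPM in Ctrl and 694, 771 and 586 CPM after 1, 3 and 7 days. The regulatory light chains *MYL12A* and *MYL12B* stood at 160, 262, 330 and 246 CPM and at 255, 565, 576 and 390 CPM in the same order. All 3 of these light chains were lower at 7-day than at 3-day, by log2 ratios of -0.40 (*MYL6*), -0.42 (*MYL12A*) and -0.57 (*MYL12B*), and the intervals of these 3 ratios stayed under 0 in all 10 alternatives. *MYH9* differed by 0.11 (95% counting interval 0.06 to 0.15) over the same step, and with median-of-ratios size factors by 0.03 (-0.02 to 0.07), which held 0.

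*MYL12A* and *MYL12B* are near-identical neighbours on chromosome 18 (chr18:3247481-3256236 and chr18:3261479-3278461, plus strand, GRCh38), so how their reads were split is uncertain. *MYL9*, the regulatory light chain of smooth muscle and of many stromal cells, had 31, 81, 321 and 111 UMIs (1.03, 2.46, 9.99 and 4.37 CPM). It peaked at 3-day with a log2 ratio of 3.27 (95% counting interval 2.74 to 3.85), the highest of the 38 genes at that time, but gave 1.09% of regulatory light chain UMIs there and was found in 10.3% of thinned cells. This ratio depended on the cells counted: it was 4.56 in the first part of the barcodes and 2.50 in the second. *MYH10*, the heavy chain of myosin IIB, was low at 2.03, 2.19, 3.17 and 3.47 CPM, with a 7-day log2 ratio of 0.77 (95% counting interval 0.28 to 1.27), and *MYH9* gave over 97% of the heavy chain UMIs of this pair in every library.

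Crosslinkers and adhesion plaque proteins bundle filaments and tie them to integrins. In sum they stood at 2.51-fold, 2.82-fold and 2.54-fold the Ctrl level, and 6 of 8 were at least 2-fold higher at each time point, against 10%, 10.5% and 11.7% of all genes. *ACTN1*, the alpha-actinin of stress fibres and focal adhesions, stood at 54.4 CPM in Ctrl and 308, 328 and 304 CPM after 1, 3 and 7 days. It was at its higher level by 1-day, 2.50 (95% counting interval 2.43 to 2.58), and stayed there, with 2.59 and 2.48, the highest 7-day log2 ratio of the 31 members. *ACTN4*, the other nonmuscle alpha-actinin, stood at 226 CPM in Ctrl and 303, 328 and 350 CPM after 1, 3 and 7 days. The pair went from 0.240 *ACTN1* UMIs per *ACTN4* UMI in Ctrl to 1.01 at 1-day and 0.870 at 7-day, from a minority of *ACTN1* to nearly equal amounts.

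*FLNA*, filamin A, which links filaments into orthogonal networks, stood at 178 CPM in Ctrl and 571, 558 and 463 CPM after 1, 3 and 7 days. *VCL*, vinculin, which strengthens loaded adhesions, stood at 28.2 CPM in Ctrl and 66.7, 79.0 and 82.5 CPM after 1, 3 and 7 days, and *ZYX*, zyxin, which is recruited to strained filaments, at 57.4 CPM in Ctrl and 145, 167 and 122 CPM after 1, 3 and 7 days. The 7-day and 3-day levels of *VCL* lay within its counting interval, while *FLNA* and *ZYX* fell. *TLN1*, talin, which activates integrins, stood apart: it stood at 48.8 CPM in Ctrl and 49.7, 47.9 and 54.3 CPM after 1, 3 and 7 days, its 1-day and 3-day intervals held 0, and its 7-day log2 ratio was 0.15 (95% counting interval 0.05 to 0.26). *VCL* and *ZYX* were at least 2-fold higher at all 3 times and *TLN1* at none, but the 7-day log2 ratio of *ZYX* was close to the limit, at 1.08 (95% counting interval 1.00 to 1.17), and was 0.91 in the first part of the barcodes.

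The LIM-domain genes *PDLIM7* and *LIMA1* were low in Ctrl. *PDLIM7*, enigma, which binds tropomyosin, stood at 20.1 CPM in Ctrl and 93.9, 136 and 94.7 CPM after 1, 3 and 7 days, a log2 ratio of 2.76 (95% counting interval 2.64 to 2.88) at 3-day, the highest of the 31 members there. *LIMA1* (EPLIN), which bundles and stabilises filaments and links cadherin junctions to actin, stood at 37.4 CPM in Ctrl and 95.9, 191 and 184 CPM after 1, 3 and 7 days. Its rise came in 2 steps, of 1.36 to 1-day and a further 1.00 (95% counting interval 0.94 to 1.06) from 1-day to 3-day. In the 2 parts of the barcodes the 3-day log2 ratio to Ctrl was 2.18 and 2.56.

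Genes of actin dynamics hold most of the UMIs of the 38 genes, 1.07% of all UMIs in Ctrl and 1.96% at 7-day. As a group they rose by 0.67, 0.70 and 0.87 on the log2 scale, less than the tropomyosins, the calponin group and the crosslinkers at each time. This sum leaned on *TMSB10*, which held 5002 of its 10693 CPM in Ctrl and 11190 of 19589 CPM at 7-day. The median log2 ratio of the group's members at 20 CPM or more was 0.81, 0.73 and 0.73, without the late rise of the sum. *TMSB10* and *TMSB4X* encode beta-thymosins, small peptides that sequester actin monomers. *TMSB10* stood at 5002 CPM in Ctrl and 6321, 8124 and 11190 CPM after 1, 3 and 7 days. *TMSB4X* stood at 2865 CPM in Ctrl and 5856, 3908 and 3593 CPM after 1, 3 and 7 days. *TMSB4X* had its peak at 1-day, 1.03 (95% counting interval 1.02 to 1.04), and lost most of that rise in CPM by 3-day, whereas *TMSB10* gained at each step to 1.16 (95% counting interval 1.15 to 1.17) at 7-day. There were 1.75 *TMSB10* UMIs per *TMSB4X* UMI in Ctrl and 1.08, 2.08 and 3.11 after 1, 3 and 7 days. *TMSB10* alone gave 29.2% of the UMIs of the 38 genes in Ctrl, 20.2% at 1-day and 34.3% at 7-day. GENCODE lists 6 pseudogenes named after *TMSB4X*, 10 after *PFN1*, 8 after *CFL1* and 5 after *MYL6*. In all, 19 of the 38 members have at least 1, and the same uncertainty applies to their counts.

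*PFN1*, profilin, which feeds monomers to growing ends, stood at 1191 CPM in Ctrl and 2286, 2370 and 2059 CPM after 1, 3 and 7 days, and *CFL1*, cofilin, which severs old filaments, at 928 CPM in Ctrl and 1488, 1585 and 1343 CPM after 1, 3 and 7 days. Both rose by 1-day, changed little to 3-day and declined to 7-day, with log2 ratios of 0.94, 0.99 and 0.79 for *PFN1* and 0.68, 0.77 and 0.53 for *CFL1*. The subunits of the Arp2/3 complex, which nucleates branched filaments, were not raised alike. *ARPC1B* stood at 138 CPM in Ctrl and 341, 442 and 483 CPM after 1, 3 and 7 days, a 7-day log2 ratio of 1.80 (95% counting interval 1.75 to 1.85). *ARPC2* stood at 457 CPM in Ctrl and 591, 759 and 761 CPM after 1, 3 and 7 days, and *ARPC5* at 102 CPM in Ctrl and 146, 143 and 143 CPM after 1, 3 and 7 days, with 7-day ratios of 0.73 and 0.49.

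*GSN*, gelsolin, a calcium-regulated severing and capping protein, stood at 7.63 CPM in Ctrl and 41.6, 18.9 and 16.2 CPM after 1, 3 and 7 days. It was highest at 1-day, 2.45 (95% counting interval 2.24 to 2.65), and fell at least 2-fold by 3-day. The 7-day log2 ratio of *GSN* was 1.09 over all cells and 1.62 over G1 cells. *CAPG*, a capping protein of the gelsolin family, had only 39, 35, 24 and 17 UMIs (1.30, 1.06, 0.747 and 0.670 CPM). It was the only member whose 3-day and 7-day intervals both lay under 0, with a 7-day log2 ratio of -0.96 (95% counting interval -1.87 to -0.10). At so few UMIs the size was uncertain: under the 10 alternatives the 3-day ratio ran from -1.14 to -0.23 and the 7-day ratio from -1.31 to -0.45.

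*EZR*, ezrin, which links filaments to the membrane of microvilli, was the only one of the 31 that fell at 1-day. It stood at 89.8 CPM in Ctrl and 59.1, 78.8 and 106 CPM after 1, 3 and 7 days, so the log2 ratio went from -0.60 (95% counting interval -0.69 to -0.52) through -0.19 to 0.23 (95% counting interval 0.16 to 0.31). *SH3BGRL3*, a small thioredoxin-fold protein, stood at 388 CPM in Ctrl and 449, 689 and 993 CPM after 1, 3 and 7 days. It too was higher in each later library, as *TMSB10* was, with log2 ratios of 0.21, 0.83 and 1.36. The 1-day value of *SH3BGRL3* turned to -0.04 in G1 cells, while its 7-day value was 1.27 there.

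Counts per cell show how a higher level was spread over the cells of a library. For a gene with few UMIs per cell, the share of cells with a UMI also follows its mean. That share alone then does not tell more expressing cells from more UMIs per cell. *TPM1* was detected in 98.1% of thinned Ctrl cells and in all thinned cells of the treated libraries. Its median went from 4 UMIs per cell in Ctrl to 33, 27 and 12 after 1, 3 and 7 days, and in 99.2% of pairs of a 1-day and a Ctrl cell (ties split evenly) the 1-day cell was higher. At 7-day this share was 87.1%. *ACTN1* was detected in 55.5% of Ctrl cells, 98.1% of 1-day cells, 98.4% of 3-day cells and 95.8% of 7-day cells, with medians of 1, 5, 6 and 5 UMIs. Both therefore shifted across nearly the whole population.

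*LIMA1* at 1-day was different. It was detected in 44.4%, 60.3%, 87.7% and 87.4% of thinned cells over the time course, so the gain in detected cells came mainly after 1-day. The variance of its UMIs per cell over their mean, which is 1 for counting error alone, was 1.38 in Ctrl and 2.98, 2.30 and 2.21 after 1, 3 and 7 days. At 1-day the mean was 1.65 UMIs per cell, where *MYH9*, with a mean of 3.05, had a variance over mean of 1.70. *LIMA1* was thus the more uneven of this pair across 1-day cells, at a lower mean.

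At the upper end, *TMSB10* had a median of 83 UMIs per thinned Ctrl cell and 106, 135 and 188 after 1, 3 and 7 days, and its 7-day count was above that of a Ctrl cell in 93.8% of pairs. *SH3BGRL3* had medians of 6, 7, 11 and 16 UMIs, and 89.2% of such pairs were higher at 7-day. At 7-day the mean of *TMSB10* was 226 UMIs in G1 cells and 180 in the others, and that of *SH3BGRL3* was 21.3 and 14.8. *EZR* was detected in 77.6% of Ctrl cells, 59.8% of 1-day cells, 70.8% of 3-day cells and 85.1% of 7-day cells, and *GSN* in 11.6%, 49.7%, 29.2% and 21.9%. *GSN* was therefore without a UMI in about as many 1-day cells as it was found in, at this depth.

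**Figure D4:**
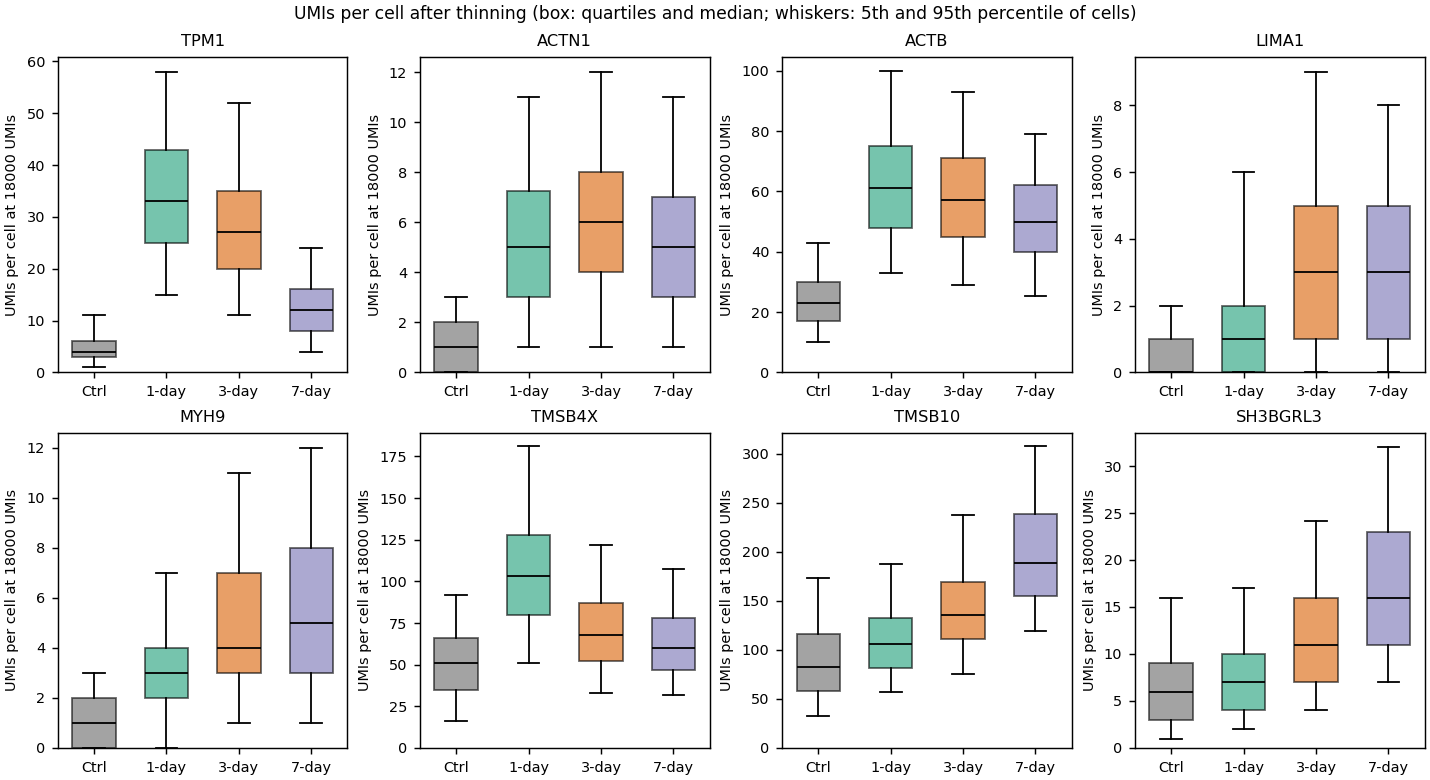
UMIs per cell of 8 members in the 4 libraries after each cell was thinned to 18000 UMIs, with boxes for the quartiles and the median and whiskers at the 5th and 95th percentile of cells. *TPM1* and *ACTN1* are shifted in nearly all 1-day cells, the *LIMA1* box still reaches 0 at 1-day and no longer does at 3-day, and *TMSB4X* peaks at 1-day while *TMSB10* climbs to a median of 188 at 7-day.

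Correlations across cells of a library were computed among members with a mean of at least 2 UMIs per thinned cell (20 members in Ctrl and 25, 27 and 26 after 1, 3 and 7 days) and are given as descriptions, since cells share a library. Most pairs were weakly related: the median Pearson r was 0.12, 0.10, 0.10 and 0.12. *ACTB* and *ACTG1* were the closest pair in each treated library, with r = 0.46, 0.65 and 0.59 after 1, 3 and 7 days, and had 0.59 in Ctrl. In Ctrl, *TMSB10* was as close to *TMSB4X* (r = 0.60), but the link of these thymosins was 0.09 at 1-day, 0.26 at 3-day and 0.47 at 7-day. *TMSB10* and *SH3BGRL3* kept an r of 0.47, 0.38, 0.51 and 0.53.

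Some of the pairs at 7-day are given here, picked after their values were seen. *ACTB*, *ACTG1*, *MYH9*, *ACTN1* and *FLNA* varied together, with r = 0.50 for *ACTN1* and *MYH9*, 0.48 for *ACTB* and *ACTN1*, 0.45 for *ACTB* and *MYH9* and 0.43 for *MYH9* and *FLNA*. *ACTB* also had an r of 0.37 with *TPM4* and with *CNN3*, as *ACTN1* had with *TPM1*. The link of *ACTN1* and *MYH9* was 0.18 at 1-day and 0.33 at 3-day, so it was larger in each later library. Cells of all phases were pooled for every r. At 7-day the mean UMIs in G1 cells and in the others were 6.67 and 4.52 for *ACTN1*, 6.39 and 4.71 for *MYH9*, and 23.2 and 25.1 for *CFL1*. The mean of *MYH9* was 3.05, 4.90 and 5.39 UMIs after 1, 3 and 7 days. Whether phase or level contributed to these r values was not tested. *PFN1* and *CFL1* had an r of 0.45. *CFL1* was weakly related to the light chains, with r = 0.25 for *MYL6*, 0.30 for *MYL12A* and 0.24 for *MYL12B*, and *PFN1* less so, with 0.08, 0.19 and 0.12. *CFL1* had r values under 0 with *MYH9* (r = -0.15) and with *ACTN1* (r = -0.07). *TMSB10* had an r of 0.36 with *ACTB*, 0.36 with *MYH9* and -0.16 with *CFL1*.

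**Figure D5:**
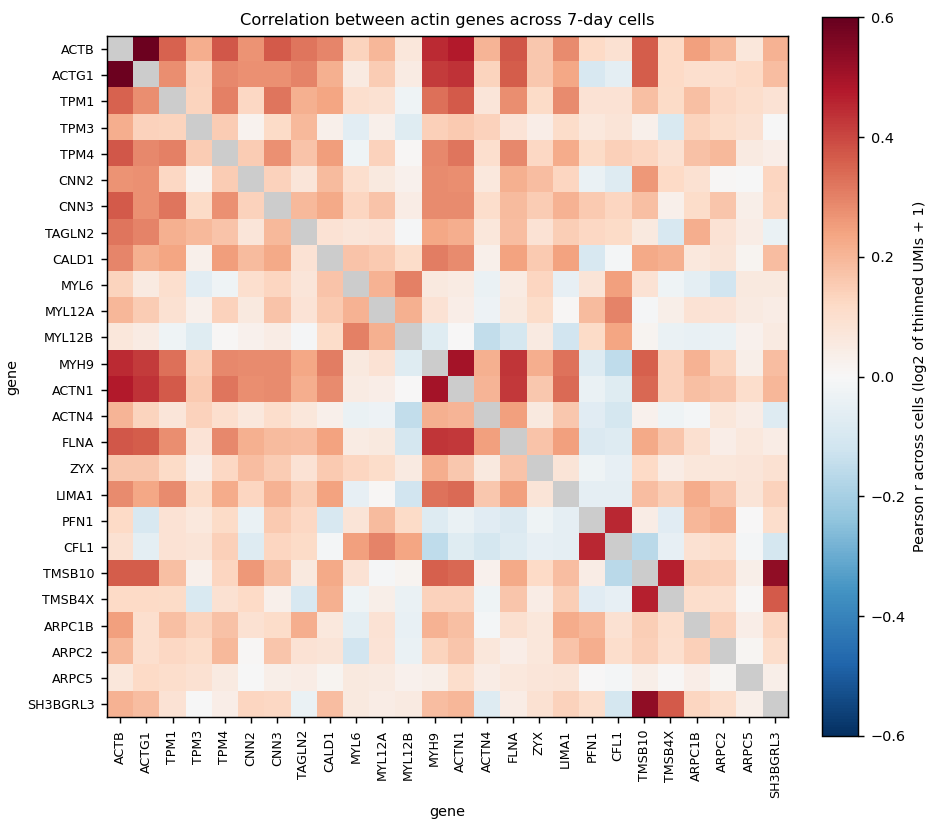
Pearson correlation (colour, from -0.6 to 0.6) across 549 7-day cells between 26 members with a mean of at least 2 thinned UMIs, computed on the log2 of UMIs plus 1. Among the darker squares are those between *ACTB*, *ACTG1*, *MYH9*, *ACTN1* and *FLNA*, between *PFN1* and *CFL1*, and of *TMSB10* with *SH3BGRL3* and *TMSB4X*.

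A list of 100 other actin regulators and binding proteins gives the setting for the 38. At least 2-fold higher were 18 of the 68 that reached 20 CPM at 1-day, 22 of 73 at 3-day and 19 of 73 at 7-day, against 10%, 10.5% and 11.7% of all genes, and 2 were lower at each time, against 8.46%, 5.18% and 4.89%. Of those higher, 4 at 1-day, 7 at 3-day and 7 at 7-day were under 20 CPM in Ctrl and passed the level limit only through the treated library, where they had to be high. Among the 62 at 20 CPM or more in Ctrl, 14, 15 and 12 were at least 2-fold higher, which is 22.6%, 24.2% and 19.4% against 5.43%, 5.54% and 5.77% of all 5248 such genes. The median log2 ratio of the list was 0.35, 0.44 and 0.54, between that of the 38 genes and that of all genes. The 5 with the highest 7-day ratio were *LCP1*, *MYLK*, *SMTN*, *FSCN1* and *CDC42EP3*, of which all but *FSCN1* passed the level limit only through the 7-day library. *LCP1*, plastin 2, which bundles filaments in leukocytes and in some carcinomas, stood at 1.90 CPM in Ctrl and 1.37, 23.0 and 95.3 CPM after 1, 3 and 7 days. *MYLK*, the kinase that phosphorylates the myosin regulatory light chain, stood at 0.567 CPM in Ctrl and 2.12, 17.6 and 23.7 CPM after 1, 3 and 7 days. *SMTN*, smoothelin, a protein of contractile smooth muscle, stood at 3.80 CPM in Ctrl and 42.2, 60.9 and 43.4 CPM after 1, 3 and 7 days, and *FSCN1*, fascin, the bundler of filopodia, at 23.5 CPM in Ctrl and 224, 274 and 204 CPM after 1, 3 and 7 days. *LCP1* and *MYLK* were thus late, with a 1-day level near that of Ctrl for *LCP1*, while *SMTN* and *FSCN1* were high from 1-day as *ACTN1* was. *CDC42EP3*, an effector of *CDC42*, had a 7-day log2 ratio of 2.86. The 5 with the lowest ratio were *EPS8* (-1.65), *PAK1* (-1.30), *PDLIM5* (-0.49), *RDX* (-0.44) and *WASF2* (-0.33). *RDX*, radixin, which links actin to the membrane as ezrin does, stood at 502 CPM in Ctrl and 745, 490 and 369 CPM after 1, 3 and 7 days. Its highest level was at 1-day and its lowest at 7-day, where *EZR* had its lowest and its highest.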

How the data were processed

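UMI counts per gene and cell were deposited by the authors as 4 matrices, 1 per library, made with Cell Ranger 2.0.1 on GRCh38 per the submitters' processing notes (10x Genomics 3′ libraries). The matrices analysed here hold 3170 of the 10710 barcodes, the first part of each library in barcode order, so sums are not full library depths. These were 941 of 3372 barcodes in Ctrl and 945 of 2601, 712 of 2253 and 572 of 2484 after 1, 3 and 7 days. Cells with more than 200 genes and at most 20% mitochondrial UMIs were retained, and the 40 cells that Scrublet (scanpy 1.11.5) marked as doublets (1.27%) stayed in except in an alternative. UMIs were summed over cells and divided by the library total (CPM), with exact Poisson intervals for levels, exact conditional 95% intervals for ratios and exact binomial intervals for shares. Changed means at least 2-fold, with at least 20 CPM in either library. Shares of cells, spreads and correlations used cells thinned to 18000 UMIs, which left out 89, 37, 28 and 20 cells. Cell cycle phases used the lists of Seurat 5.3.0. Gene positions came from GENCODE 44, and promoter windows from RefSeq (GRCh38.p14). The interval and the 2-fold rule were tried on counts simulated with Poisson error alone, which is the error the interval assumes. This cannot show how the interval does where cells or libraries vary beyond counting error. Alternatives were other scaling, filters, doublets left out, G1 cells, parts of the barcodes, thresholds and minima. The 38 genes, the other lists and the steps were chosen with earlier results of these data known. A comparison of protein sequences was not run. Python 3.11.15 and R 4.3.3 were used.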

Additional observations from a re-analysis of the deposited data

Results flagged for a closer look

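*EZR* and *RDX*, both linkers of actin filaments to the membrane, differed in direction between time points, which is why they are listed here. The log2 ratio of *EZR* to Ctrl was -0.60 (95% counting interval -0.69 to -0.52) at 1-day, -0.19 (-0.27 to -0.11) at 3-day and 0.23 (0.16 to 0.31) at 7-day, where it was 0.12 (-0.02 to 0.27) in G1 cells. *RDX*, of the list of other actin genes, ran the other way, with 0.57 (0.54 to 0.60) at 1-day, -0.036 (-0.07 to -0.003) at 3-day and -0.44 (-0.48 to -0.41) at 7-day. With 1 library per time point and a shared Ctrl, these differences were not tested.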

How the results depend on the processing

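No log2 ratio of the 31 members reversed its direction beyond its counting interval, and no member moved by over 1.5-fold, in the 93 ratios recomputed under 10 alternatives of scaling and cell choice. Many ratios did leave their counting interval, 61 of the 93 in G1 cells and 50 with median-of-ratios size factors. In the first and second part of the barcodes, 29 and 30 did. The largest move was *GSN* at 7-day in G1 cells, from 1.09 to 1.62, and *SH3BGRL3* at 1-day went from 0.21 to -0.04 in G1 cells. The number that rose at every step (5) was 3 with median-of-ratios size factors, where the 3-day to 7-day steps of *MYH9* and *ACTN4* held 0, and in G1 cells the 3-day to 7-day steps of *ACTG1* and *ACTN1* and the 1-day to 3-day step of *FLNA* turned upward. This check of the steps was chosen after seeing the data. The count of the 38 genes at least 2-fold higher ran from 15 to 20 at 1-day, 18 to 19 at 3-day and 15 to 19 at 7-day under these alternatives. With a 1.5-fold limit, 1 of the 31 members at 20 CPM or more (3.23%) was lower at 1-day, *EZR*, against 18.9% of all genes. At 7-day 25 of 30 members (83.3%) were higher by this limit, against 22% of all genes. Of the other actin genes, 2 were lower at 1-day. This count was 1 with median-of-ratios size factors, 1 in G1 cells and 0 in the second part of the barcodes. With a 1.5-fold limit it was 5 of 68 (7.35%, against 18.9% of all genes), and with no minimum beyond 3 counts it was 4. The count lower at 3-day was 6 with no such minimum. With a 1.5-fold limit the count higher at 7-day was 32 of 73 (43.8%, against 22% of all genes). Shares of all genes are given here for the 1.5-fold limit only, so the other counts of alternatives stand without a background. No paired analysis was possible because the labels name no replicates and every time point is a lone library. Depth limits *ACTA2*, *TPM2*, *CNN1*, *TAGLN*, *MYL9*, *MYH10* and *CAPG*, whose ratios rest on at most 321 UMIs a library.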

Other observations

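The 3 log2 ratios to Ctrl lay closest together for *ARPC5* (0.52, 0.49 and 0.49) and *ACTN1* (2.50, 2.59 and 2.48) among the 31 members that reached 20 CPM. At 7-day the smooth muscle genes among the 38 (*ACTA2*, *CNN1*, *TAGLN* and *MYL9*) stood at 0 to 4.37 CPM, whereas their nonmuscle relatives *ACTB*, *CNN3*, *TAGLN2* and *MYL12B* stood at 390 to 2833 CPM. *MYL9* and *TAGLN* had been higher at 3-day, at 9.99 and 4.79 CPM. The 7-day log2 ratios to Ctrl of *ACTA2*, *TAGLN* and *MYL9* were 2.13, 2.12 and 2.08, with counting intervals above 0. They rested on 26, 77 and 111 UMIs at 7-day, and *CNN1* had 0.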
